A study of Mus musculus with 12 samples.

Results

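The genes examined here encode the proteases that cut Notch receptors: Psen2, Ncstn, Aph1a, Aph1b and Psenen, which encode subunits of γ-secretase, and Adam10 and Adam17, which encode membrane sheddases. They were taken by symbol from the 3 deposited tables and are 7 of the 23366 gene symbols in each table. All 7 passed the filter on low values in every comparison. The rule that picks them uses their role as Notch-cleaving enzymes and no measured value, although earlier results of these data were known when it was set.

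The study used Beko cells, a mouse pre-T cell line, and sequenced ribosomal RNA-depleted total RNA from 12 libraries in 6 groups of 2. Cells were given DAPT, an inhibitor of γ-secretase, at 10 µg/ml for 24 h, or apicidin, a histone deacetylase inhibitor, at 0.01 µg/ml for 24 h, and each drug had its own pair of libraries from cells given DMSO. Cells expressing a hairpin against Hdac3 (shHdac3) or a scrambled hairpin (scrambled) were taken 96 h after puromycin. All groups are the same line in the same insulin-supplemented medium, with no genotype other than the hairpins. The sample descriptions give both shHdac3 libraries the same hairpin name, Sh1, so effects of that hairpin on other genes cannot be told apart from those of losing Hdac3. The study asked which genes respond to loss of Notch signalling and what HDAC3 does at them. For the genes here, DAPT acts on the enzyme that Psen2, Ncstn, Aph1a, Aph1b and Psenen help to build, so the DAPT comparison gives their RNA in cells whose γ-secretase was inhibited.

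As background, a Notch receptor that is pulled by a ligand is cut first outside the membrane, mainly by ADAM10, and then inside the membrane by γ-secretase, which frees the intracellular domain that works in the nucleus. ADAM17 can make the outer cut when Notch is activated without ligand, and it is best known for releasing tumour necrosis factor from the surface of immune cells. γ-Secretase needs 4 kinds of subunit: a presenilin such as PSEN2 holds the active site, nicastrin (Ncstn) gates substrate entry, an APH1 protein scaffolds the complex, and PEN-2 (Psenen) is needed for the presenilin to mature. Mice have Aph1a and a closely related pair, Aph1b and Aph1c, so complexes with different APH1 proteins can form. Pre-T cells pass their first T cell checkpoint under Notch signals, which is why this pathway is studied in them.

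Aph1b is the member whose RNA changed most, and it shares sequence with Aph1c, so the first 120 coding bases of the 3 genes are shown, from GENCODE vM21 transcripts. Capitals in Aph1b and Aph1c mark the 14 bases at which these differ from each other, and capitals in Aph1a mark the 40 bases that differ from Aph1b.
Aph1b: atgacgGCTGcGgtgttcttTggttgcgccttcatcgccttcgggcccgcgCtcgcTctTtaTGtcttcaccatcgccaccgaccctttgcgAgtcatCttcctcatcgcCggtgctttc
Aph1c: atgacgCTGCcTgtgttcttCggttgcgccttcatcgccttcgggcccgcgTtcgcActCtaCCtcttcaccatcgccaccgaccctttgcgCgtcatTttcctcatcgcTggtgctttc
Aph1a: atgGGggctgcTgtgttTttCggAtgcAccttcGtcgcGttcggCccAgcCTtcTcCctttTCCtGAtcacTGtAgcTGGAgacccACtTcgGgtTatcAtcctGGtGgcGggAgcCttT
Over their whole coding sequences Aph1b and Aph1c were 96.3% identical, with 29 of 774 aligned bases differing, and 46.7% of the coding stretches of 50 bases in Aph1c also occur in Aph1b. Aph1a was 64.0% identical to Aph1b and shared 0 stretches of 50 bases with it. Reads of Aph1b and Aph1c can therefore be confused, and the RefSeq gene table lists each of these symbols as an older name of the other, so which of the pair a row stands for is uncertain. Aph1a does not have this limit.

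The 250 bases before the start of Adam10, Aph1a and Aph1b are shown because Adam10 had the largest called change of the 7 genes with DAPT, Aph1a rose in both experiments on histone deacetylases, and Aph1b had the largest changes there. They come from RefSeq, build GRCm38.p6, while the deposited tables were made on mm9, so no other coordinates are given. Each runs 5′ to 3′ along the gene's strand. Capitals mark matches to 3 short motifs searched on both strands: GTGGGAA (a binding motif of RBPJ, the DNA-binding partner of Notch), CACGTG (the E-box) and CCGGAAG (an ETS motif).
Adam10, chr9:70678732-70678981, plus strand: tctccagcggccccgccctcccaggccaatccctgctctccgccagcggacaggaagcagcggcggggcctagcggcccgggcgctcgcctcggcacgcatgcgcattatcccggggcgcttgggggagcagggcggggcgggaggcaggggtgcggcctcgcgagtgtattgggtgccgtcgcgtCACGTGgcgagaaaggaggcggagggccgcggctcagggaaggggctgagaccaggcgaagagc
Aph1a, chr3:95893671-95893920, plus strand: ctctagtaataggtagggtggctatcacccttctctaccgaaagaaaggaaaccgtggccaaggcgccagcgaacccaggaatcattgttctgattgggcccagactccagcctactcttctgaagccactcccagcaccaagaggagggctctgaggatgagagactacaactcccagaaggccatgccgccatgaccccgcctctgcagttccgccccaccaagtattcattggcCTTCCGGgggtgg
Aph1b, chr9:66795424-66795673, minus strand: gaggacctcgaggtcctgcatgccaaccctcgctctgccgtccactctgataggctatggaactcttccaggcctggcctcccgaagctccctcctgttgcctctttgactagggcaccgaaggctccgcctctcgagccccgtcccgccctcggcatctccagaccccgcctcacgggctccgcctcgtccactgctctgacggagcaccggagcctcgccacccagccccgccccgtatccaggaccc
The Adam10 window held CACGTG 64 bases before the start, as did 6.02% of the 32851 RefSeq windows of this length. The Aph1a window held CCGGAAG on the reverse strand 13 bases before the start, and 6.91% of windows held this motif. The Aph1b window held none of these motifs. RefSeq gave 9 windows for the 7 members, and GTGGGAA, found in 5.42% of all windows, occurred in 1 of them, a Psen2 window that also held CACGTG, 9 bases before the start. Ncstn, Adam17 and 1 of the Psenen windows also held CCGGAAG. No match overlapped another. GC content was 74.0% for Adam10, 57.2% for Aph1a and 68.0% for Aph1b, beside a median of 52.4% over all windows. These are descriptions of letters and were not tested against expression.

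The libraries held 37237080 to 42815304 reads in the DAPT experiment, 21766984 to 29652001 in the apicidin experiment and 24673559 to 29004315 in the hairpin experiment. Hdac3 itself stood at 774 and 819 normalized reads with shHdac3 and at 2012 and 1930 with the scrambled hairpin. The 7 Notch target genes used as a check all fell after DAPT, with Dtx1 at a log2 fold change of −3.05 ± 0.04 (limma adjusted p = 3.15e-24). All 7 fell with apicidin too, and 5 fell with shHdac3, with medians of −1.78, −0.66 and −0.55 in the 3 comparisons. DESeq2 and the authors' deposited adjusted p each called 6 falls with apicidin. Hes1, 1 of the 7 target genes, changed by −1.74 ± 0.09, −0.23 ± 0.08 and −0.78 ± 0.07. Its apicidin call was lost without apicidin library 1 (−0.16) and without DMSO library 2 (−0.13). Among all genes tested 23.1%, 19.9% and 19.4% fell with DAPT, apicidin and shHdac3, and 20.1%, 18.2% and 22.5% rose. The 11 pre-T cell markers, which include the Notch targets Ptcra and Il2ra, all passed the filter in each experiment. Beside those shares of all genes, 8 of the 11 markers fell with DAPT, 8 with apicidin and 7 with shHdac3, while 3, 2 and 1 rose. They summed to 124124 to 126495 normalized reads with DAPT and 149779 to 152955 in its controls, to 75952 to 75973 with apicidin and 96824 to 97183 in its controls, and to 78361 to 80230 with shHdac3 and 102584 to 102752 with the scrambled hairpin. Their part in the results was not tested. Hbb-b1, Hba-a1, Ms4a1 and Pax5, which mark red cells and B cells, were listed at 0 in every library. The 5 myeloid markers summed to 466 to 531 with DAPT and 240 to 246 in its controls, to 751 to 797 with apicidin and 509 to 534 in its controls, and to 368 to 396 across the hairpin libraries. Itgam made up nearly all of this, while Lyz2, Csf1r and Mpo had fewer than 10 normalized reads in every library, and the part of such cells in the results was not tested. The 4 fibroblast markers summed to 1102 to 1160 with DAPT and 1200 to 1212 in its controls, to 1894 to 1929 and 1459 to 1461 in the apicidin experiment, and to 1989 to 2010 and 1221 to 1228 in the hairpin experiment. Pdgfrb made up most of that sum and Col3a1 was at or near 0, and its part in the results was not tested either. In these bulk libraries fewer cells of a type and less RNA per cell cannot be told apart.

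Levels are normalized reads, that is, reads scaled by the size factor of their library, and changes are log2 fold changes ± SE. A gene is said to rise or fall where limma's p-value, adjusted over all genes of the comparison, was under 0.05. Each experiment was normalized on its own, so levels are compared only within it. Member reads ran from 111 for Aph1b to 5229 for Adam10 in single libraries.

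**Figure D1:**
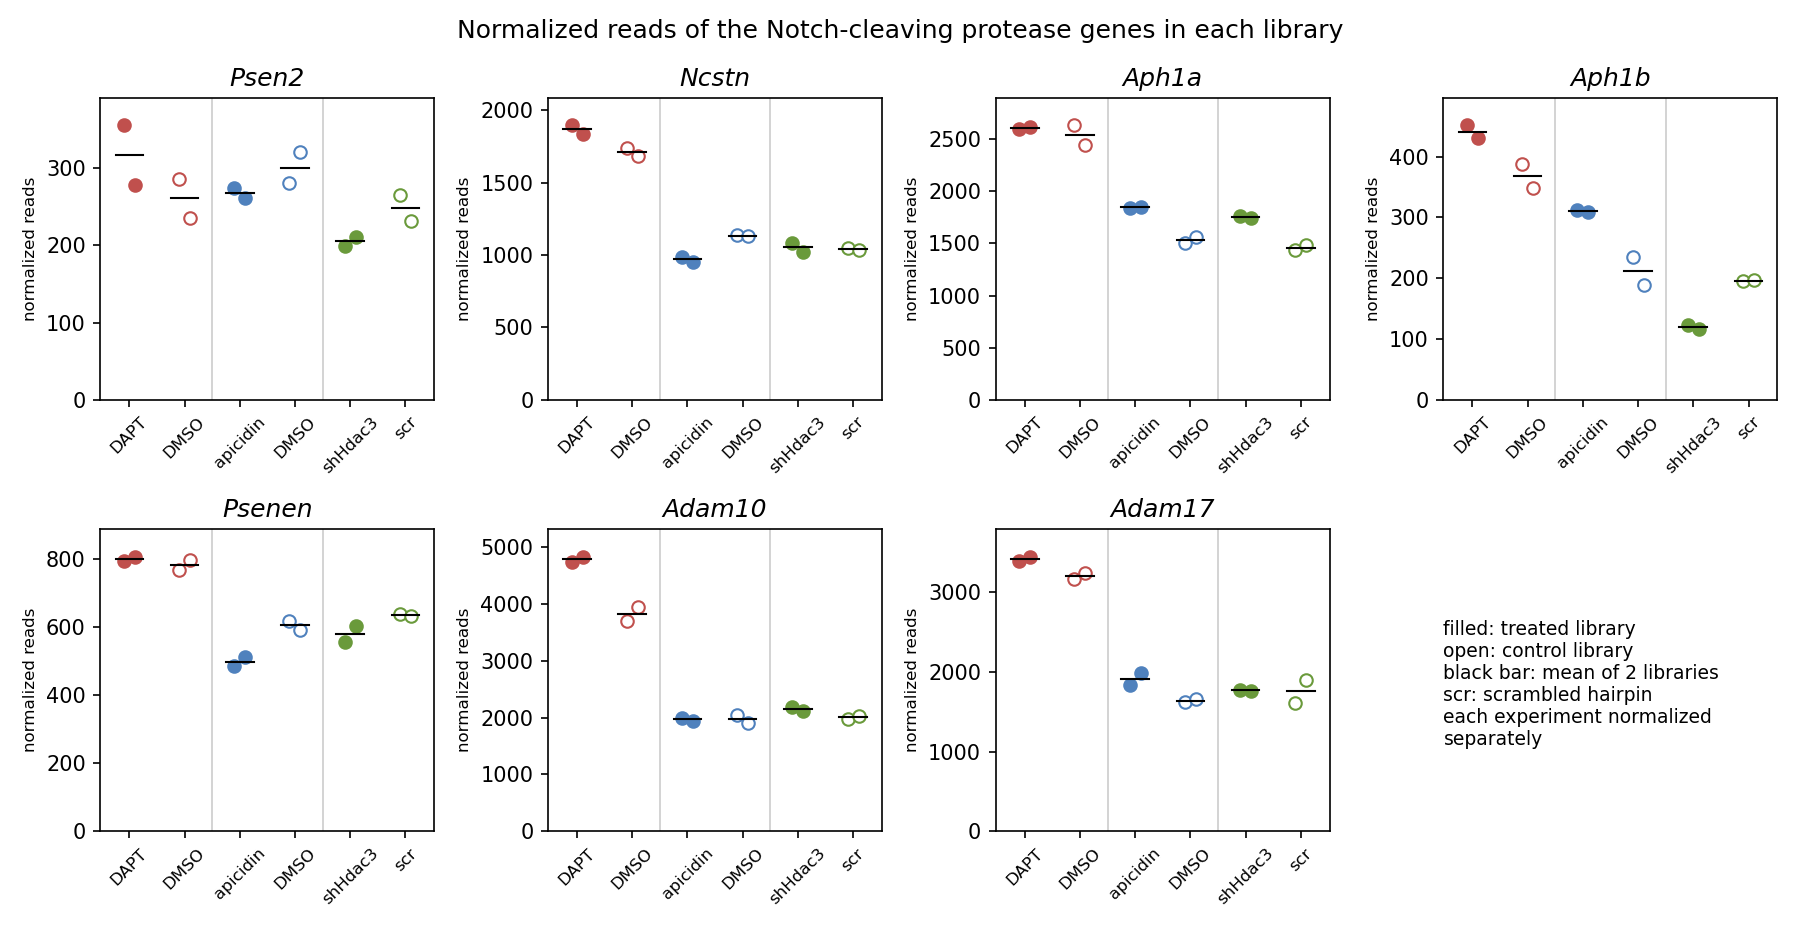
Normalized reads of the 7 genes in each of the 12 libraries, with 1 panel per gene, filled points for treated and open points for control libraries, and black bars for the mean of 2 libraries. Adam10 lies well above its controls with DAPT, slightly above them with shHdac3 and among them with apicidin, while the treated Aph1b libraries lie above their controls with both drugs and below them with shHdac3.

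Adam10, the main ligand-dependent Notch sheddase, was at 4743 and 4838 normalized reads with DAPT and at 3708 and 3948 with DMSO. Both DAPT libraries were higher than both controls. Adam10 rose 1.25-fold (0.32 ± 0.04, adjusted p = 8.6e-07), and it passed under all 14 alternatives of processing. In size it ranked 3165 of 12840 genes tested, beside a median of 0.28 among called genes. With apicidin Adam10 was at 1990 and 1946, against 2055 and 1910 with DMSO. These overlapped, and the 95% interval of the log2 change ran from −0.11 to 0.09. In shHdac3 cells it was at 2185 and 2126, and in scrambled cells at 1980 and 2027. These libraries did not overlap, yet the change of 0.11 ± 0.05 did not pass (adjusted p = 0.076), nor did it under any of the 14 alternatives.

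Adam17, the sheddase of tumour necrosis factor and of many cytokine receptors, was at 1841 and 1983 normalized reads with apicidin and at 1617 and 1661 with DMSO. The groups did not overlap, and Adam17 rose by 0.22 ± 0.05 (adjusted p = 0.0017), passing under all 14 alternatives. In the GENCODE annotation 4.35% of its exon bases lie over Iah1 on the other strand, and Iah1 fell with apicidin (−0.41 ± 0.08). With DAPT Adam17 was at 3398 and 3449, against 3173 and 3245. The groups did not overlap, and the change of 0.09 ± 0.04 missed the threshold (adjusted p = 0.066), although it passed with upper-quartile scaling, with edgeR and without DMSO library 2 (0.11). With shHdac3 it was at 1774 and 1763, within the range of the scrambled libraries, 1616 and 1904.

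The ratio of Adam10 to Adam17 reads within a library does not depend on scaling. It was 1.40 ± 0.005 (SD, n = 2) with DAPT and 1.19 ± 0.03 in its controls, and 1.03 ± 0.07 with apicidin and 1.21 ± 0.09 in its controls. Neither pair of groups overlapped, and the ratio stood above the controls with DAPT and below them with apicidin. With shHdac3 the ratio was 1.22 ± 0.02, against 1.15 ± 0.11, and the libraries overlapped. The exact permutation test, two-sided, gave p = 0.333 with each drug, the smallest that 2 against 2 libraries allow, and p = 0.667 with shHdac3.

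Psen2, a catalytic subunit of γ-secretase, had few reads, 194 to 364 per library. With DAPT it was at 355 and 278 normalized reads, against 286 and 235 with DMSO. The groups overlapped and the change of 0.28 ± 0.12 did not pass (adjusted p = 0.060). With apicidin it was at 274 and 261, against 281 and 320, a change of −0.16 ± 0.10 that did not pass (adjusted p = 0.20). With shHdac3 it was at 200 and 211, against 265 and 231. The groups did not overlap, and Psen2 fell by 0.27 on the log2 scale (SE 0.11, adjusted p = 0.049). This call is marginal: 6 of 14 alternatives kept it, and it was lost without either shHdac3 library (−0.23 and −0.31) and without scrambled library 1 (−0.17).

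Ncstn, which encodes nicastrin, moved in opposite directions with the 2 drugs. With apicidin it was at 990 and 953 normalized reads, against 1136 and 1132 with DMSO. Both apicidin libraries were lower, and Ncstn fell by 0.22 (SE 0.05, adjusted p = 0.0029), passing under 13 of 14 alternatives and not by the authors' deposited adjusted p (0.062). Copa, whose exons cover 4.91% of the Ncstn exon bases on the other strand, rose with apicidin (0.15 ± 0.04). With DAPT Ncstn was at 1895 and 1839, against 1741 and 1685. Both DAPT libraries were higher, and Ncstn rose by 0.12 ± 0.05 (adjusted p = 0.036), passing under 8 of 14 alternatives. The call was lost without either DAPT library (0.10 and 0.15), without DMSO library 2 (0.10), with DESeq2 and by the authors' deposited adjusted p. With shHdac3 it was at 1083 and 1024, overlapping the scrambled libraries at 1047 and 1036, and the interval of the log2 change was −0.10 to 0.13.

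Aph1a, the more abundant APH1 scaffold gene, rose by the same measured amount in both experiments that target histone deacetylases. It was at 1844 and 1849 normalized reads with apicidin, against 1502 and 1563 with DMSO. In shHdac3 cells it was at 1765 and 1742, and in scrambled cells at 1435 and 1481. In neither experiment did the groups overlap. The changes were 0.27 ± 0.05 with apicidin (adjusted p = 2.1e-04) and 0.27 ± 0.05 with shHdac3 (adjusted p = 2.9e-05), a 1.20-fold rise in each, and both passed under all 14 alternatives. With DAPT it was at 2595 and 2613, against 2631 and 2448, which overlapped, and the interval of the log2 change was −0.06 to 0.13. Car14, on the other strand over 12.9% of the Aph1a exon bases, had 11.3 to 39.4 normalized reads in all libraries.

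Aph1b, the second APH1 scaffold gene, had the largest changes of the 7 genes, in opposite directions with apicidin and with shHdac3. With apicidin it was at 313 and 308 normalized reads, against 234 and 189 with DMSO. In shHdac3 cells it was at 122 and 116, and in scrambled cells at 195 and 197. The groups did not overlap in either experiment, with apicidin higher and shHdac3 lower than the controls. Aph1b rose 1.47-fold with apicidin (0.56 ± 0.11, adjusted p = 6.8e-04) and was 1.64-fold lower with shHdac3 (−0.72 ± 0.13, adjusted p = 1.9e-05). Both passed under all 14 alternatives, and in size they ranked 1207 of 12463 and 853 of 12482 genes tested. With DAPT it was at 451 and 430, against 388 and 348, which did not overlap. Aph1b rose there by 0.26 ± 0.09 (adjusted p = 0.016), passing under 10 of 14 alternatives. The call was lost without DAPT library 1 (0.23), without DMSO library 2 (0.18), with DESeq2 and by the authors' deposited adjusted p.

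Aph1c, the near copy of Aph1b, had fewer reads. It was at 152 and 150 normalized reads with DAPT against 113 and 110, at 142 and 125 with apicidin against 71.6 and 77.4. In shHdac3 cells it was at 69.9 and 42.8, beside 77.6 and 70.9 in the scrambled libraries. It lay above the controls with both drugs and below them with shHdac3, in each case without overlap. Aph1c rose by 0.44 ± 0.14 with DAPT (adjusted p = 0.012, and up to 0.151 under the alternatives) and by 0.83 ± 0.16 with apicidin (adjusted p = 4.6e-04), while −0.43 ± 0.21 with shHdac3 did not pass (adjusted p = 0.10). Summing the pair gave 0.31 ± 0.08 with DAPT, 0.64 ± 0.09 with apicidin and −0.63 ± 0.12 with shHdac3. The limma adjusted p was 0.0020, 2.9e-05 and 1.7e-05. The sum does not depend on which row of the pair a read was put in. How reads that match both copies were counted is not given, and the sum does not settle it. This sum was added after the data were seen.

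**Figure D2:**
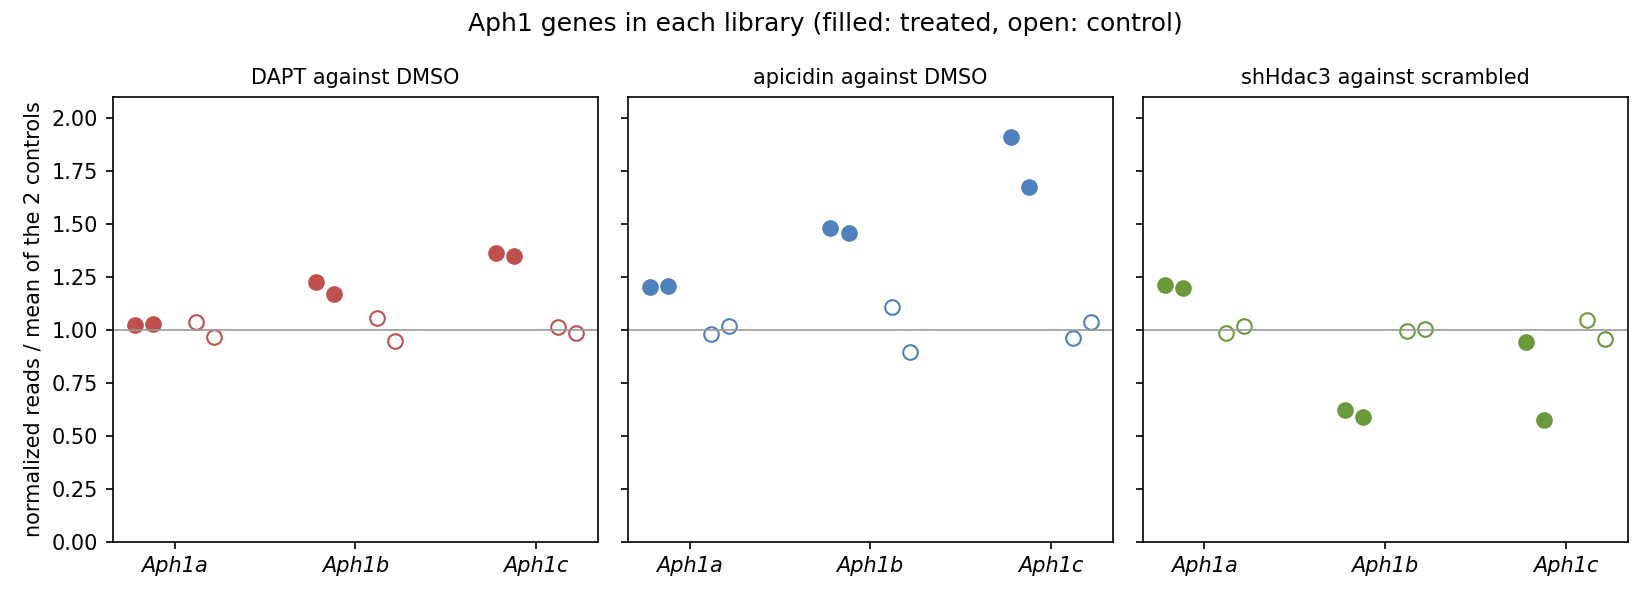
Normalized reads of Aph1a, Aph1b and Aph1c in each library, divided by the mean of the 2 controls of the same experiment, with filled points for treated and open points for control libraries. Aph1b and Aph1c lie above 1 with DAPT and apicidin and below 1 with shHdac3, whereas Aph1a lies above its controls with apicidin and shHdac3 only.

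The balance of the 2 scaffold genes shifted most with shHdac3. Aph1a had 14.7 ± 0.44 reads (SD, n = 2) for each Aph1b read with shHdac3 and 7.44 ± 0.11 with the scrambled hairpin. The ratio was 5.94 ± 0.07 with apicidin against 7.34 ± 1.31, and 5.91 ± 0.23 with DAPT against 6.91 ± 0.18. No pair of groups overlapped, with the ratio above its controls in shHdac3 cells and below them with both drugs. The exact permutation p was 0.333 in each comparison, the smallest possible.

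Psenen, which encodes the PEN-2 subunit, was at 486 and 512 normalized reads with apicidin and at 619 and 593 with DMSO. The groups did not overlap, and Psenen fell by 0.28 (SE 0.07, adjusted p = 0.0041), passing under 12 of 14 alternatives. It passed neither with DESeq2 (adjusted p = 0.057) nor by the authors' deposited adjusted p (0.079). U2af1l4 lies over 9.33% of the Psenen exon bases on the other strand and fell too (−0.39 ± 0.07), and its part in the Psenen reads was not tested. With shHdac3 Psenen was at 556 and 605, against 638 and 632, which did not overlap. The change of −0.13 ± 0.07 did not pass (adjusted p = 0.14). With DAPT it was at 794 and 808, against 768 and 799, and these overlapped, with an interval of −0.10 to 0.16.

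Counted together, 3 of the 7 genes rose with DAPT and 0 fell, beside 43.2% of all genes tested that were called (20.1% higher and 23.1% lower). With apicidin 3 rose and 2 fell, beside 38.1% of all genes (18.2% higher and 19.9% lower). With shHdac3 1 rose and 2 fell, beside 41.9% (22.5% higher and 19.4% lower). The counts for DAPT and shHdac3 are close to the share among all genes. The γ-secretase genes did not all move one way: with apicidin Aph1a and Aph1b rose while Ncstn and Psenen fell, and with shHdac3 Aph1a rose while Aph1b and Psen2 fell.

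**Figure D3:**
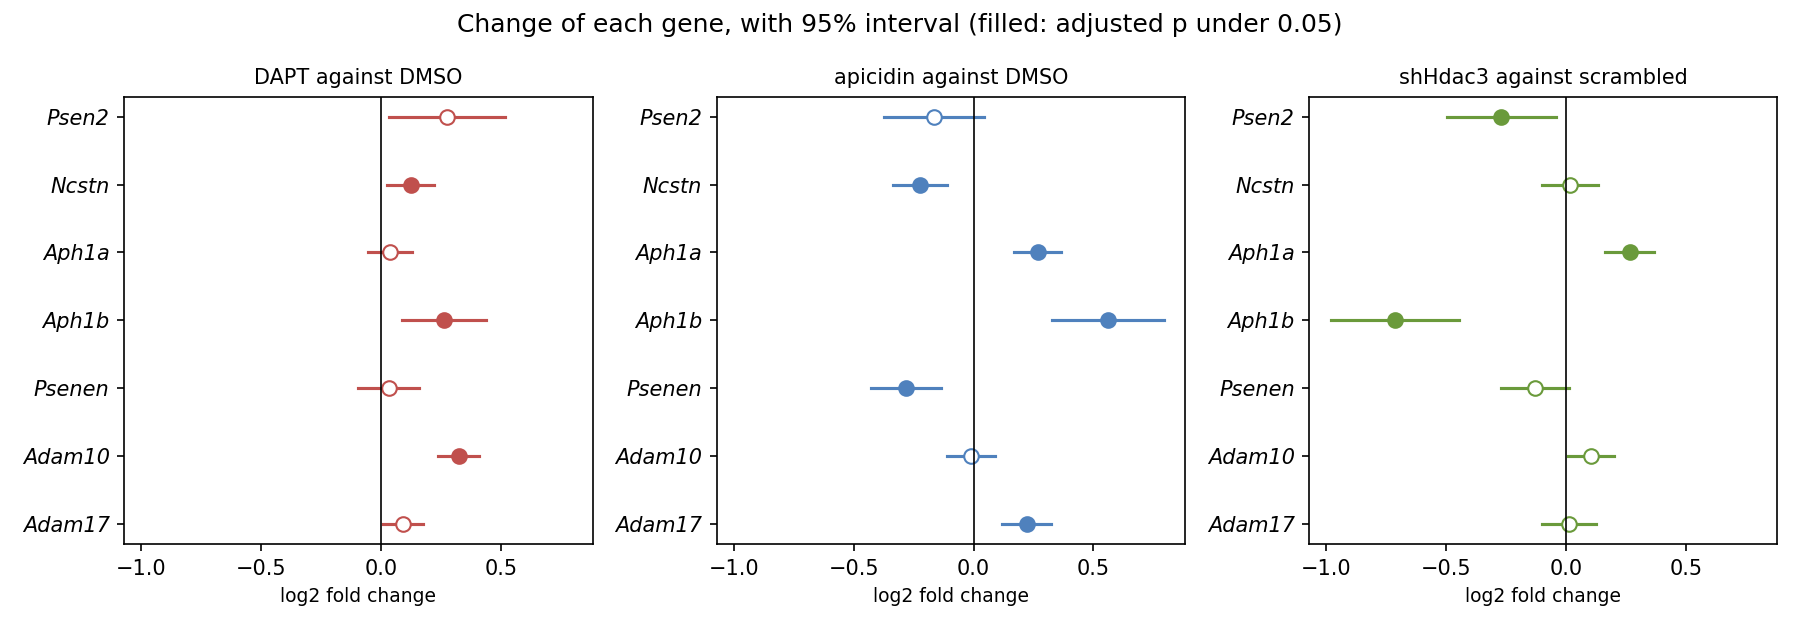
Log2 fold change of each gene with its 95% interval in the 3 comparisons, with filled points where the limma adjusted p was under 0.05. Aph1b has the widest span, from −0.72 with shHdac3 to 0.56 with apicidin, and Adam10 passes only with DAPT.

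Whether the responses differ between treatments was tested on all 12 libraries, as the difference of 2 treated-against-control log2 changes after common scaling. The DAPT and apicidin responses differed for 5 of the 7 genes, beside 34.8% of all genes tested. The DAPT and shHdac3 responses differed for 4, beside 43.8%, and the apicidin and shHdac3 responses for 3, beside 33.4%. Drug and hairpin experiments also differ in treatment time and delivery, which cannot be told apart from the target.

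Adam10 responded more to DAPT than to apicidin, by 0.32 ± 0.06 (adjusted p = 4.2e-04), and more than to shHdac3, by 0.21 ± 0.06 (adjusted p = 0.010). The latter was lost without DMSO library 1 of the DAPT experiment (0.16). Aph1b gave the largest difference, 1.28 ± 0.15 between apicidin and shHdac3 (adjusted p = 6.8e-07), and 0.97 ± 0.15 between DAPT and shHdac3 (adjusted p = 1.2e-05). Between DAPT and apicidin the Aph1b difference of −0.31 ± 0.15 did not pass (adjusted p = 0.12). Aph1a responded less to DAPT than to apicidin (−0.24 ± 0.06, adjusted p = 0.0044) and than to shHdac3 (−0.24 ± 0.06, adjusted p = 0.0041). Between apicidin and shHdac3 its difference was 0.01, with an interval of −0.12 to 0.14. The response of Ncstn to DAPT minus that to apicidin was 0.34 ± 0.07 (adjusted p = 5.5e-04), and its response to apicidin minus that to shHdac3 was −0.24 ± 0.07 (adjusted p = 0.011). The latter was lost without shHdac3 library 1 (−0.20).

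**Figure D4:**
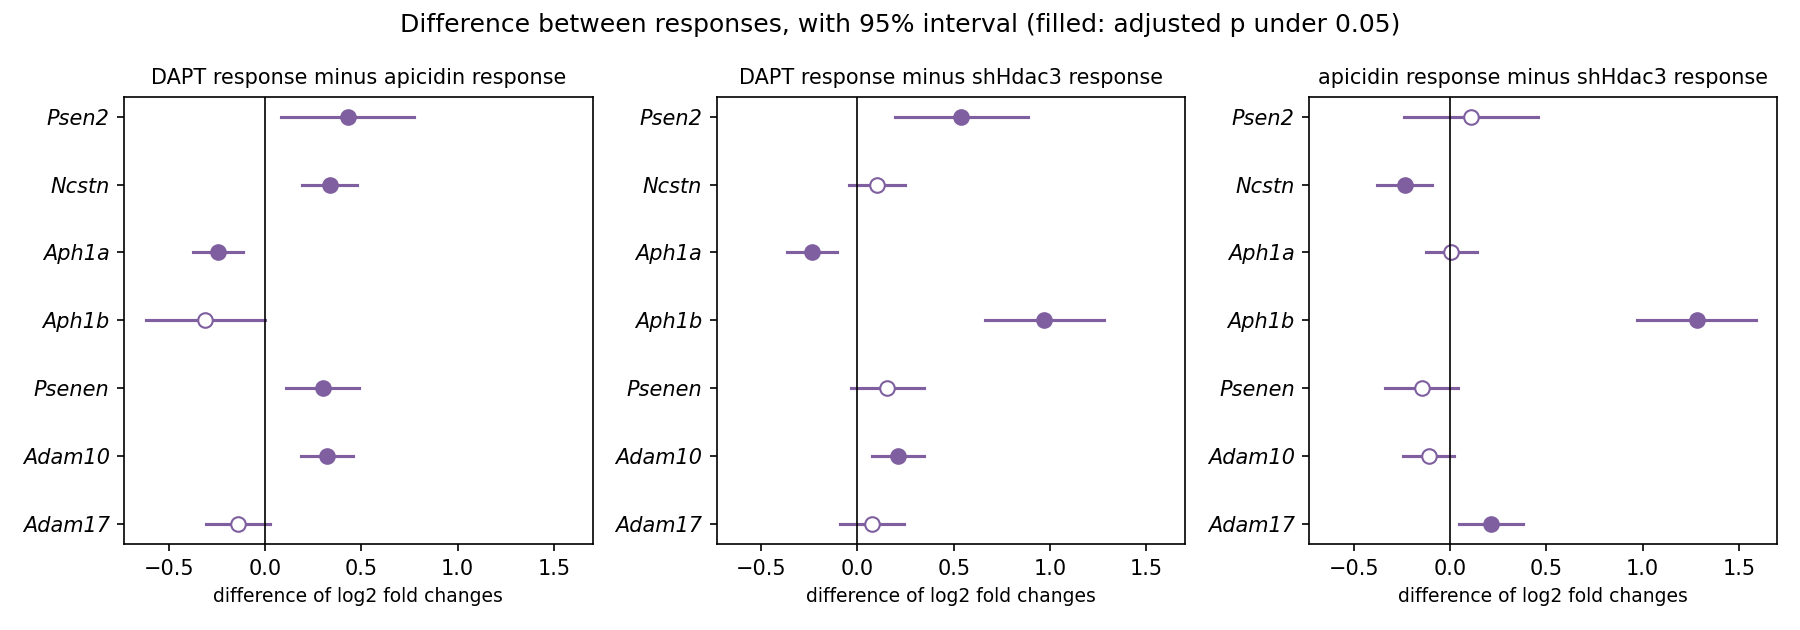
Difference between the log2 fold changes of 2 treatments for each gene, with its 95% interval, and filled points where the adjusted p was under 0.05. Aph1b lies far to the right in both panels that involve shHdac3, at 0.97 and 1.28, and Aph1a lies at 0.01 between apicidin and shHdac3.

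Levels of different genes can be compared only per length, and here exon lengths came from GENCODE vM21, another build than the tables. Reads per kilobase put the genes in 2 tiers in the control groups. In the DMSO libraries of the apicidin experiment Psenen stood at 476 ± 14.3 normalized reads per kilobase (SD, n = 2), Aph1a at 444 ± 12.5, Adam10 at 404 ± 20.9, Ncstn at 285 ± 0.70 and Adam17 at 229 ± 4.32. Psen2, at 69.3 ± 6.42, Aph1b, at 41.0 ± 6.17, and Aph1c, at 14.3 ± 0.79, were far lower. The scrambled libraries gave the same order, with Adam17 and Ncstn overlapping (226 and 266 against 263 and 261). In the DMSO libraries of the DAPT experiment Adam10 came first, at 779 ± 34.6, and overlapped Aph1a at 736 ± 37.5. There Psenen was the third at 615 ± 16.9, Adam17 (449 ± 7.13) and Ncstn (431 ± 9.99) followed, and Aph1b (71.2 ± 5.51) stood just above Psen2 (60.2 ± 8.37). No test was made of these orders. How reads that match both Aph1b and Aph1c were counted is not given, so the levels of these genes are uncertain.

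Partners of the sheddases were described from a list of 17 genes of tetraspanins, iRhom proteins, activating convertases and inhibitors. With shHdac3 7 of 13 tested fell and 2 rose, with a median log2 change of −0.24 beside 0.00 for all genes tested, of which 19.4% fell and 22.5% rose. DESeq2 called 5 falls and the authors' deposited adjusted p 4. With DAPT 1 of 14 fell and 3 rose (median 0.04, beside 23.1% and 20.1% of all genes), and with apicidin 3 of 14 fell and 2 rose (median −0.01, beside 19.9% and 18.2%). DESeq2 called 2 falls and 0 rises with apicidin, and the rises numbered 1 without either apicidin library. Rhbdf2 encodes iRhom2, which carries ADAM17 to the cell surface. It was at 231 and 240 normalized reads with shHdac3 and at 358 and 357 with the scrambled hairpin. Both shHdac3 libraries were lower, and Rhbdf2 fell by 0.60 (SE 0.10, adjusted p = 1.9e-06), while Adam17 RNA in the same libraries was within the range of its controls. With DAPT and apicidin the Rhbdf2 changes of −0.11 ± 0.09 and 0.05 ± 0.09 did not pass.

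Timp3, the tissue inhibitor that blocks ADAM17 and ADAM10, was at 13.4 and 21.9 with shHdac3, against 52.1 and 46.3. Tspan17, a tetraspanin that escorts ADAM10, was at 45.3 and 30.3, against 106 and 70.0. Neither overlapped its controls, and Timp3 fell by 1.47 (SE 0.30, adjusted p = 8.6e-05) and Tspan17 by 1.20 (SE 0.23, adjusted p = 3.1e-05). Tspan33 fell as well (−0.70 ± 0.24), a call lost without shHdac3 library 2 (−0.55) and without either scrambled library (−0.68 and −0.73). With DAPT Tspan17 rose by 0.72 ± 0.26, which was lost without DAPT library 1 (0.53) and DMSO library 2 (0.60).

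Furin and Pcsk7 encode convertases that remove the prodomains of ADAM10 and ADAM17. Furin was at 1183 and 1300 normalized reads with DAPT, against 1030 and 1011, at 912 and 869 with apicidin, against 957 and 1065, and at 938 and 806 with shHdac3, against 1017 and 1042. It lay above its controls with DAPT and below them in the other experiments. Furin rose by 0.28 ± 0.06 with DAPT (adjusted p = 3.6e-04) and fell by 0.18 with apicidin (SE 0.06, adjusted p = 0.027) and by 0.24 with shHdac3 (SE 0.06, adjusted p = 0.0015). The apicidin call was lost without apicidin library 2 (−0.15) or DMSO library 2 (−0.10), and the shHdac3 call without shHdac3 library 2 (−0.13). Pcsk7 rose in all 3 comparisons, by 0.24 ± 0.05, 0.19 ± 0.06 and 0.31 ± 0.07, the apicidin call being lost without apicidin library 1 (0.14). Timp2, an inhibitor mainly of matrix metalloproteinases, fell by 0.23 (SE 0.04) with DAPT and by 0.65 (SE 0.05) with apicidin and rose by 0.29 ± 0.05 with shHdac3. With apicidin Tspan14, another ADAM10 tetraspanin, fell by 0.26 (SE 0.06), and Reck, an inhibitor of membrane metalloproteases, rose by 0.67 ± 0.24 on 33.4 to 63.7 normalized reads, which was lost without apicidin library 2 (0.43).

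**Figure D5:**
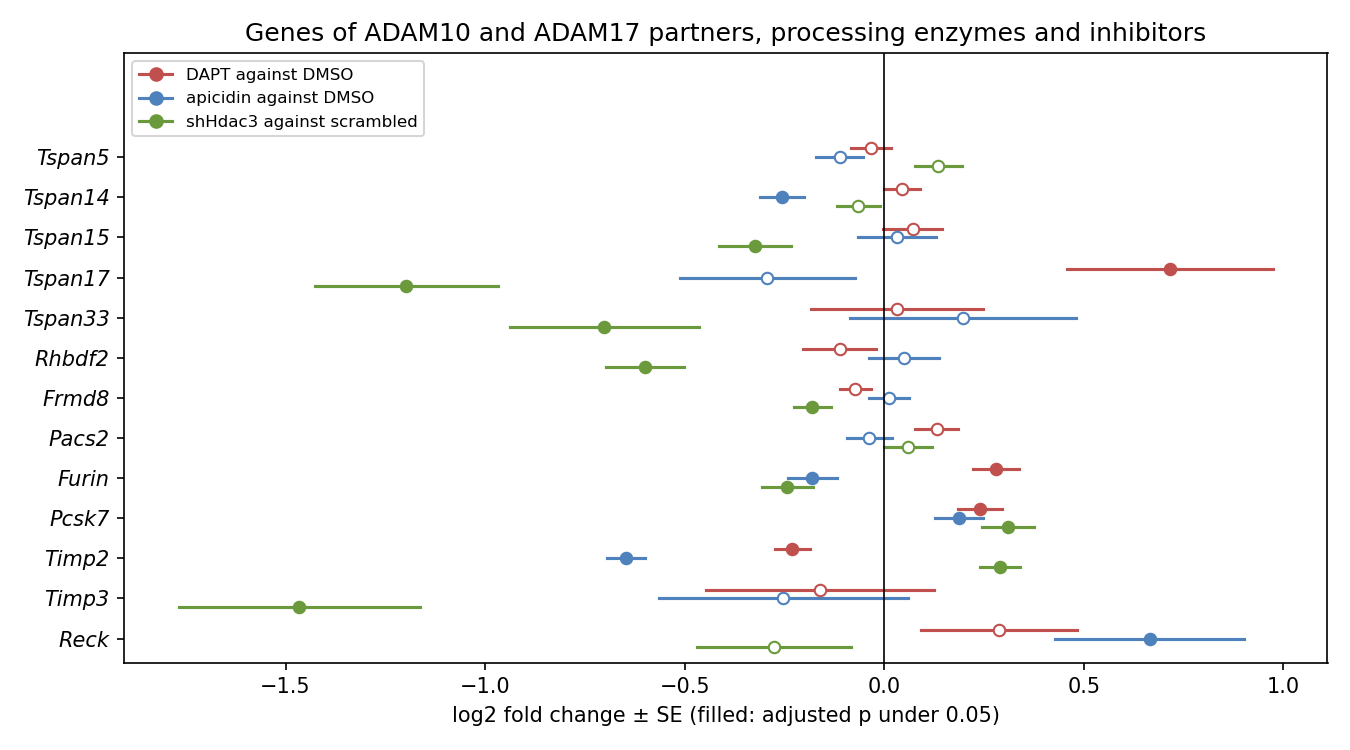
Log2 fold change ± SE of the 13 partner, processing and inhibitor genes tested in all 3 comparisons, with filled points where the adjusted p was under 0.05. Timp3, Tspan17, Tspan33 and Rhbdf2 lie between −1.47 and −0.60 with shHdac3, and Furin lies above 0 with DAPT and below 0 in the other comparisons.

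Proteins that modulate or carry γ-secretase were followed with a list of 8 genes, of which 6 were tested. With DAPT 2 rose and 1 fell, with apicidin 2 rose and 1 fell, and with shHdac3 3 rose and 1 fell, beside 43.2%, 38.1% and 41.9% of all genes called. The medians were 0.01, 0.03 and 0.13. With DAPT the rises numbered 1 without either DAPT library, without DMSO library 2 and with DESeq2. Arrb1 and Arrb2 encode β-arrestins, adaptors of cell-surface receptors that also bind APH1 subunits. Arrb2 was at 1433 and 1380 normalized reads with apicidin against 988 and 1023, and at 1230 and 1220 with shHdac3 against 941 and 960. Arrb1 was at 1334 and 1323 with apicidin against 1841 and 1807, and at 1382 and 1373 with shHdac3 against 1659 and 1677. In both experiments the β-arrestin genes parted without overlap: Arrb2 rose (0.48 ± 0.05 and 0.37 ± 0.06) and Arrb1 fell (−0.46 ± 0.05 and −0.28 ± 0.05), with adjusted p of 1.9e-05 or less. With DAPT Arrb1 rose by 0.30 ± 0.04 (adjusted p = 4.7e-06). Tmed2, a cargo protein of early secretory vesicles, rose with apicidin (0.29 ± 0.04) and shHdac3 (0.31 ± 0.04).

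Presenilin-type intramembrane proteases other than γ-secretase were represented by Sppl2a, Sppl2b, Sppl3 and H13, listed with Aph1c. With DAPT 2 of these 5 rose and 1 fell, and with each of apicidin and shHdac3 3 rose and 0 fell, beside 43.2%, 38.1% and 41.9% of all genes called. The medians were 0.08, 0.15 and 0.16. DESeq2 and the authors' deposited adjusted p each gave 1 rise and 0 falls in every comparison. The number of rises was 4 without DMSO library 2 of the DAPT experiment, 1 without apicidin library 1 and 1 without scrambled library 1, and the fall with DAPT was lost without DMSO library 1. A fall was called without DMSO library 1 of the apicidin experiment, and likewise without shHdac3 library 1. H13, the signal peptide peptidase, rose in all 3 comparisons by 0.16 ± 0.04, 0.15 ± 0.04 and 0.17 ± 0.05, the apicidin call being lost without apicidin library 1 (0.14) or DMSO library 1 (0.12). Among 16 other ADAM and sheddase genes, of which 9 or 10 were tested, 2 rose and 2 fell in each comparison, close to the 43.2%, 38.1% and 41.9% called among all genes. The medians were 0.02, 0.18 and 0.06. With DAPT, DESeq2 and the authors' deposited adjusted p each called 0 rises and 2 falls. With apicidin DESeq2 called 1 rise and 2 falls, and the authors' adjusted p 1 of each. With shHdac3 DESeq2 called 1 rise and 0 falls, and the falls numbered 1 without either shHdac3 library and 0 without scrambled library 2. The rises numbered 1 without either DAPT library or DMSO library 2 with DAPT, without apicidin library 1 with apicidin, and without shHdac3 library 2 with shHdac3. Adam19 fell by 1.06 with DAPT (SE 0.18), from 149 and 126 normalized reads to 54.5 and 77.7. Adam15 rose by 0.44 ± 0.08 with apicidin. Bace1, an aspartic sheddase, fell by 0.28 with DAPT (SE 0.04) and rose by 0.52 ± 0.05 with shHdac3.

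Substrates of γ-secretase were followed with a list of 28 genes. Of the 16 tested, 6 rose and 4 fell with DAPT, 2 rose and 7 fell with apicidin, and 2 rose and 10 fell with shHdac3, with medians of 0.11, −0.07 and −0.32. Among all genes 20.1% rose and 23.1% fell with DAPT, 18.2% and 19.9% with apicidin, and 22.5% and 19.4% with shHdac3. With apicidin DESeq2 and the authors' deposited adjusted p each called 1 rise and 5 falls. The shHdac3 falls numbered 7 with DESeq2, 6 by the authors' deposited adjusted p, and 8 or 9 with single libraries left out. The rises numbered 1 without apicidin library 1 in that experiment, and 1 without shHdac3 library 1 or scrambled library 1 in the hairpin experiment. Notch1 was at 14315 and 14340 normalized reads with DAPT against 34487 and 34616, at 14523 and 13561 with apicidin against 21199 and 22159, and at 20056 and 21738 with shHdac3 against 25657 and 25710. It was lower than its controls in every experiment, and fell by 1.27 (SE 0.04), 0.63 (SE 0.05) and 0.30 (SE 0.05). Notch3 fell by 0.89, 0.80 and 0.81 (SE 0.04 each). Ngfr, the p75 neurotrophin receptor, fell by 1.52, 1.94 and 1.25, and Cdh1, which encodes E-cadherin and is also cut by ADAM10, by 3.31 with DAPT and 2.50 with apicidin. Jag2, a Notch ligand that is itself cleaved, fell by 1.20 (SE 0.15) with shHdac3.

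Leukocyte surface proteins shed by ADAM10 or ADAM17 gave 6 higher and 1 lower of 13 tested with DAPT, 2 and 2 of 13 with apicidin, and 3 and 3 of 12 with shHdac3, with medians of 0.26, 0.25 and −0.08. Among all genes 20.1% were higher and 23.1% lower with DAPT, 18.2% and 19.9% with apicidin, and 22.5% and 19.4% with shHdac3. The 6 higher with DAPT numbered 4 with DESeq2 and 4 to 7 with single libraries left out, and the 2 lower with apicidin numbered 1 without apicidin library 2. Il6ra, the interleukin-6 receptor, was at 237 and 197 normalized reads with DAPT and at 41.0 and 47.0 with DMSO, without overlap, and rose by 2.27 ± 0.16 (adjusted p = 1.07e-10). The myeloid marker Itgam was higher in the same libraries, and its part in this was not tested. Tnf, whose product is the classic ADAM17 substrate, was at 359 and 341 with apicidin and at 159 and 153 with DMSO. It rose by 1.16 ± 0.10 (adjusted p = 1.4e-07), in the same libraries in which Adam17 rose.

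Across the 12 libraries, each centred on its experiment, the members did not move as one group. The strongest relation was negative, with Pearson r = −0.88 between Aph1a and Psenen, and the strongest positive one was 0.62 between Ncstn and Psenen. Adam10 and Adam17 had r = 0.29. These values describe 12 libraries from 3 experiments that share treatments, and they carry no test. Among 9425 candidate genes, those most like Adam10 were Gbp10 (r = 0.98), Emc3 (0.97) and Kctd12 (0.96). For Aph1a they were Zfand2a (0.98), Mapk14 (0.98) and Slc39a6 (0.98), and for Aph1b Rarg (0.97), Thsd1 (0.97) and Suco (0.97). For Ncstn they were Uba7 (0.98), Sept8 (0.97) and Hes6 (0.97), and for Psenen Ralgapa1 (0.97), Ndufb11 (0.96) and Arhgap21 (0.96). Adam17 was most like Mtmr6 (0.92), Tirap (0.92) and Serac1 (0.90), and Psen2 was most like Otud3 (0.93), Sh3bgrl3 (0.90) and Rab4b (0.90).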

How the data were processed

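RNA was measured in 12 libraries, 2 per group. No source says that these are separate cultures, so p-values cover only the spread between libraries, possibly technical. The submitters' processing notes list build mm9 and, with no roles, DESeq2, TopHat, Bowtie2 and FastQC. The kit marks strand, but the counter, annotation and strand setting (not given in the sources used here) leave reads of overlapping genes uncertain. Per the file headers, the authors deposited normalized signal, a log2 fold change, a test score and p-values. The deposited signal is a whole number of reads over a size factor (100% of values, tolerance 1e-06).

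limma 3.58.1 in R 4.3.3 was fitted to log2(value + 1), with a trend and two-sided tests, for genes at 10 or more in at least 2 of 4 libraries, with Benjamini-Hochberg adjustment at 0.05 over all genes tested. The pseudocount understates changes of low genes. Differences between responses used the recovered reads of 12 libraries. Alternatives were other pseudocounts and filters, TMM and upper-quartile scaling, edgeR 4.0.16 and DESeq2 1.42.0 on recovered reads, the authors' adjusted p, a replicate block, left-out libraries and, added after seeing the data, Aph1b and Aph1c summed. The fits were tested on simulated reads, with 50 genes changed at each size. Of 1.3-fold changes 86% were recovered for DAPT, 82% for apicidin and 66% for shHdac3, and of 2-fold changes 100% in each. False calls numbered 7, 9 and 1. Only genes with a mean of 50 or more were changed, and far fewer than were called in the data. These shares may therefore not carry over to the data. A small change that did not pass can have been missed. Members and lists were chosen with earlier results of these data known. Named genes are the members, with Hdac3, Hes1 and Dtx1 as checks. Others are up to 4 called genes with the largest changes per list and comparison, and the 3 genes most correlated with each member.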

Additional observations from a re-analysis of the deposited data

Results flagged for a closer look

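The responses of single genes to 2 treatments were set against each other on the log2 scale, and 12 differences passed an adjusted p under 0.05 in limma over all genes. Psen2 changed by 0.28 with DAPT and −0.16 with apicidin, neither of which passed, and by −0.27 with shHdac3, a marginal call. Its DAPT change minus its apicidin change was 0.43, and its DAPT change minus its shHdac3 change was 0.54. The first was lost without DAPT library 1 (0.26), DMSO library 2 of the DAPT experiment (0.29), apicidin library 1 (0.46) or 2 (0.40), or DMSO library 2 of the apicidin experiment (0.34). The second was lost without DAPT library 1 (0.37), DMSO library 2 (0.40) or scrambled library 1 (0.44). Psenen responded to DAPT and apicidin with a difference of 0.30, lost without DMSO library 1 of the DAPT experiment (0.27) or apicidin library 1 (0.26). Ncstn differed by 0.34 between DAPT and apicidin and by −0.24 between apicidin and shHdac3, the latter being lost without shHdac3 library 1 (−0.20). Aph1a differed by −0.24 both between DAPT and apicidin and between DAPT and shHdac3.

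Aph1b differed by 0.97 between DAPT and shHdac3 and by 1.28 between apicidin and shHdac3, each passing with every library left out in turn. Adam10 differed by 0.32 between DAPT and apicidin and by 0.21 between DAPT and shHdac3, the latter being lost without DMSO library 1 of the DAPT experiment (0.16). Adam17 differed by 0.21 between apicidin and shHdac3. This was lost without apicidin library 2 (0.16), either DMSO library of that experiment (0.20 and 0.23), either shHdac3 library (0.22 and 0.21) or scrambled library 2 (0.09).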

How the results depend on the processing

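Of 609 recomputed values in member rows, 549 kept their direction and side of the threshold, and 40 no longer passed. A further 9 newly passed, 11 that had not passed changed sign, and no called change reversed. These values include the fits with Aph1b and Aph1c summed, in which the values of the other members could hardly change. The rises of Adam10 with DAPT, of Aph1a, Aph1b and Adam17 with apicidin and of Aph1a with shHdac3, and the fall of Aph1b with shHdac3, passed under all 14 alternatives. With DAPT the number of members called, 3, was 5 with upper-quartile scaling, 1 with DESeq2, 1 by the authors' deposited adjusted p, and 1 to 4 with single libraries left out (1 without DAPT library 1). With apicidin 3 of 7 passed in the authors' deposited table, in place of 5. Over all genes DESeq2 called 2663 with apicidin and 3116 with shHdac3, the authors' deposited adjusted p gave 2465 and 2961, and limma 4746 and 5228. Of the shHdac3 calls 53.8% were higher, and 43.5% with upper-quartile scaling, and of the DAPT calls 46.6% and 56.5%, so that scaling turned the majority in both. The number of members whose responses differed was 3 to 6 between DAPT and apicidin (3 without apicidin library 1) and 1 to 3 between apicidin and shHdac3 (1 without shHdac3 library 1). A left-out library leaves an arm of 1, assumed to vary like the other group. Same-numbered libraries share only a number (correlation of deviations 0.01 to 0.04). With a replicate block 5978, 4811 and 5327 genes and 4, 5 and 3 members were called, Psen2 passing with DAPT (adjusted p = 0.011). Aph1b, at 111 reads in 1 library, and Psen2 limit the precision most.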
